A study of Mus musculus with 12 samples.

Results

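Basement membranes are thin sheets of extracellular matrix that wrap each adipocyte and underlie endothelial and epithelial layers. The genes described here encode their laminins, nidogens and perlecan, together with the matricellular protein SPARC. They were chosen by symbol as a list of 10 genes (Lama2, Lama4, Lama5, Lamb1, Lamb2, Lamc1, Nid1, Nid2, Hspg2 and Sparc) out of 48321 genes listed, and all 10 were present and were tested.

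The RNAseq libraries came from brown preadipocytes of a WT newborn mouse that had been immortalized with SV40 large T and then stably transduced by lentivirus. The vector line carried empty pLEX, and the tSema4B line carried pLEX with a truncated Semaphorin 4B that mimics the form released by the protease ADAM17. Both lines were differentiated for 8 days. The differentiation medium contained isobutylmethylxanthine, rosiglitazone, dexamethasone, insulin and triiodothyronine. The cells were then kept for 6 h in serum-free medium with albumin, either unstimulated or with 2 μM norepinephrine (NE), the sympathetic transmitter that activates brown fat. The 4 groups were therefore vector, tSema4B, vector NE and tSema4B NE, with 3 libraries in each. Each construct was represented by 1 puromycin-selected line, and the design text describes the 3 libraries of a condition as technical replicates. The p-values thus measure the spread between these libraries, and a difference between the lines cannot be told apart from a difference between 2 separately transduced cultures.

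Laminins are cross-shaped trimers of an α, a β and a γ chain, and the chain combination names the isoform. Lama2, Lama4 and Lama5 encode α chains, Lamb1 and Lamb2 β chains and Lamc1 the γ chain found in most laminins, so that α4 with β1 and γ1 makes laminin-411. Laminins and type IV collagen each form a network, nidogens bind both, and perlecan adds a heparan sulphate proteoglycan that binds growth factors. SPARC is a secreted collagen-binding protein, and it is known to hold back adipocyte differentiation. Adipocytes build such a membrane around themselves as they mature, with laminin α4 as a main α chain of the adipocyte surface.

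Between 2000780 and 5409583 reads per library were counted on genes, and within each condition every vector library was deeper than every tSema4B library. The 10 genes together took between 0.275% and 0.460% of the normalized counts of a library. Sema4b, the transduced gene, had a mean normalized count of 116797 in vector and 281514 in tSema4B, and of 74266 and 234276 after NE. In the vector line, whose label gives it no Sema4B insert, it took 3.58% to 4.02% of the normalized counts without and 2.04% to 2.57% with NE, and ranked 2 or 3 among all genes. In tSema4B libraries it ranked 1, with 7.01% to 10.2%. Reads of the construct and of the endogenous gene were not told apart, and the source of the reads in the vector line was not tested, so the lines compare a higher with a lower level of Sema4b reads, not presence with absence. Libraries of a group differed by more than counting noise (chi-square divided by its degrees of freedom, 3.65 to 6.12), so each was kept as a library of its own.

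The labelled cell type was checked against marker genes. Adipoq, which encodes adiponectin, had a mean of 2458 normalized counts in vector and 436 in tSema4B, and Ucp1, the uncoupling protein of brown fat, had a mean of 276 in vector NE and 62.9 in tSema4B NE. Ucp1 was lower before stimulation, at 9.25 to 15.2 in vector, and had no read in unstimulated tSema4B. The summed level of the 12 brown adipocyte markers was 33016 to 36660 in vector, 5280 to 7897 in tSema4B, 46531 to 58967 in vector NE and 9425 to 10809 in tSema4B NE. Of the 11 that were tested, 9 were lower in tSema4B in each condition (7.39% of all genes without and 11.2% with NE). The 12 preadipocyte and fibroblast markers summed to 16796 to 17428 in vector, 31517 to 35834 in tSema4B, 13908 to 15993 in vector NE and 29576 to 31417 in tSema4B NE, with 8 of 10 tested higher without stimulation (5.64% of all genes) and 9 of 10 after NE (9.79%). Col1a1 and Col3a1 made up most of the preadipocyte and fibroblast sum in every library. Endothelial markers, whose cells also make basement membrane, summed to 4.34 to 12.0 in vector and 13.1 to 23.3 in tSema4B, without overlap. After NE their sums were 5.24 to 15.4 in vector and 12.9 to 18.5 in tSema4B. The 1 that was tested, Pecam1, did not pass between the lines (adjusted p = 0.282 without and 0.294 with NE). Kdr, Tie1 and Cldn5 had no read. Macrophage markers summed to at most 24.6 and Schwann cell markers to at most 32.6, with no read of Adgre1, Ptprc, C1qa or Sox10. The macrophage sum was higher with NE in each line, most of the difference being reads of Csf1r, which had 0 to 2 reads per library without and 9 to 22 with NE. Pericyte and smooth muscle markers summed to 818 to 1264 in vector, 1214 to 1332 in tSema4B, 662 to 881 in vector NE and 615 to 986 in tSema4B NE, and 4 of 7 were tested. Most of this sum was Acta2 in every library, while Myh11, a smooth muscle marker, had at most 3 reads. With NE, Acta2, encoding smooth muscle actin, fell by 0.55 on the log2 scale in vector (adjusted p = 0.0362) and 0.75 in tSema4B (adjusted p = 0.00785), and Notch3 was higher in tSema4B NE than in vector NE (log2 difference 1.13, adjusted p = 0.00401).

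The sequences just upstream of the genes that changed with NE are shown because these genes moved in different directions, Lamb1 up and Lamb2, Nid1 and Hspg2 down. RefSeq windows of 250 bases before the gene start (GRCm38.p6) were on hand for 7 of the 10 genes, and not for Lama4, Lamc1 and Nid2. The windows of Lama2 and Sparc lie wholly inside the gene spans given below. Of the 250 bases of the Sparc window, 238 are in annotated exons. The longest stretch outside annotated exons is printed, on the plus strand in all 4 cases, from chr12:31265043-31265233 for Lamb1, chr9:108479612-108479735 for Lamb2, chr13:13437352-13437550 for Nid1 and chr4:137468553-137468768 for Hspg2. Capitals mark a GC box (GGGCGG, or CCGCCC on the other strand) or a CCAAT box (CCAAT or ATTGG).
Lamb1: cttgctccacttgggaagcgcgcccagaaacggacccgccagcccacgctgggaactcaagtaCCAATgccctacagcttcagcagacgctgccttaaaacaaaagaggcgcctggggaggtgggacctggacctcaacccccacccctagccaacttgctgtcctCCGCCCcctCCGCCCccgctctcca
Lamb2: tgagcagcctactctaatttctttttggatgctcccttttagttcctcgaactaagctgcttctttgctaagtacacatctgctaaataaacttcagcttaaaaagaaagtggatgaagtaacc
Nid1: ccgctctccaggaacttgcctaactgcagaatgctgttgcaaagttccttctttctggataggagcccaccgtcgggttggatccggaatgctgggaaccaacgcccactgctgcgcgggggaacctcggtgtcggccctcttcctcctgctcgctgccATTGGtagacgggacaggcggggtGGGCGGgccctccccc
Hspg2: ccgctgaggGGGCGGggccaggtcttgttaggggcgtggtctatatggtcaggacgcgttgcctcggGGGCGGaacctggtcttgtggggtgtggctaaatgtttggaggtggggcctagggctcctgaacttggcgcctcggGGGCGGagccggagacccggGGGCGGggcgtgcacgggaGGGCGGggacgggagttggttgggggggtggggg
The Hspg2 window held 5 GC boxes and the Lamb1 window 2 GC boxes and 1 CCAAT box, whereas neither motif was found in the Lamb2 window. The Nid1 window held 1 of each. GC boxes were found in 4 of the 7 windows (Lama5, Lamb1, Nid1 and Hspg2), against 32.7% of 32841 windows of the same length genome-wide, and CCAAT boxes in 2 of 7 against 33.9%. A TATA box (TATAAA), an AP-1 site (TGANTCA) and the cAMP response element TGACGTCA were found in 0 of the 7 windows, against 12.4%, 6.75% and 1.55% of all windows, with both strands searched. The shorter form TGACG of the cAMP response element was found in 1 of the 7, Lama5, against 17.8%, and GGAGGAGGA and the E-box CACGTG in 0 of the 7, against 2.45% and 6.02%. The GC content was 62.0% for Lamb1, 43.6% for Lamb2, 64.4% for Nid1 and 70.0% for Hspg2, with a median of 52.4% over all windows. A match says only that the letters are there.

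Levels of different genes were compared per kb of exon. Sparc was the highest of the 10 in all 4 groups, with means of 1257 normalized counts per kb in vector, 2036 in tSema4B, 1196 in vector NE and 1949 in tSema4B NE. The nidogens came next, at 164.5 to 349.7 per kb. Lamb1, Lamc1 and Lamb2 followed between 35.0 and 86.3 per kb, then Hspg2 and Lama4 between 22.2 and 37.1, and Lama2 and Lama5 were lowest, at 4.75 to 14.7. In vector, the ranges of Lamc1 and Lamb1 overlapped, as did those of Lamb1 and Lamb2, of Nid1 and Nid2, of Lama4 and Hspg2, and of Lama2 and Lama5. Among neighbours in the other orders, only Lamb2 and Lamc1, and Lamc1 and Lamb1, overlapped in tSema4B, only Nid2 and Nid1, Lamb2 and Lama4, and Lama2 and Lama5 in vector NE, and only Hspg2 and Lama4, and Lama2 and Lama5, in tSema4B NE. In tSema4B NE Nid2 lay above Nid1 in every library (310.1 to 406.4 against 160.8 to 196.6 per kb). Between the highest and the lowest gene the span was 186-fold in vector and 357-fold in tSema4B NE.

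**Figure D1:**
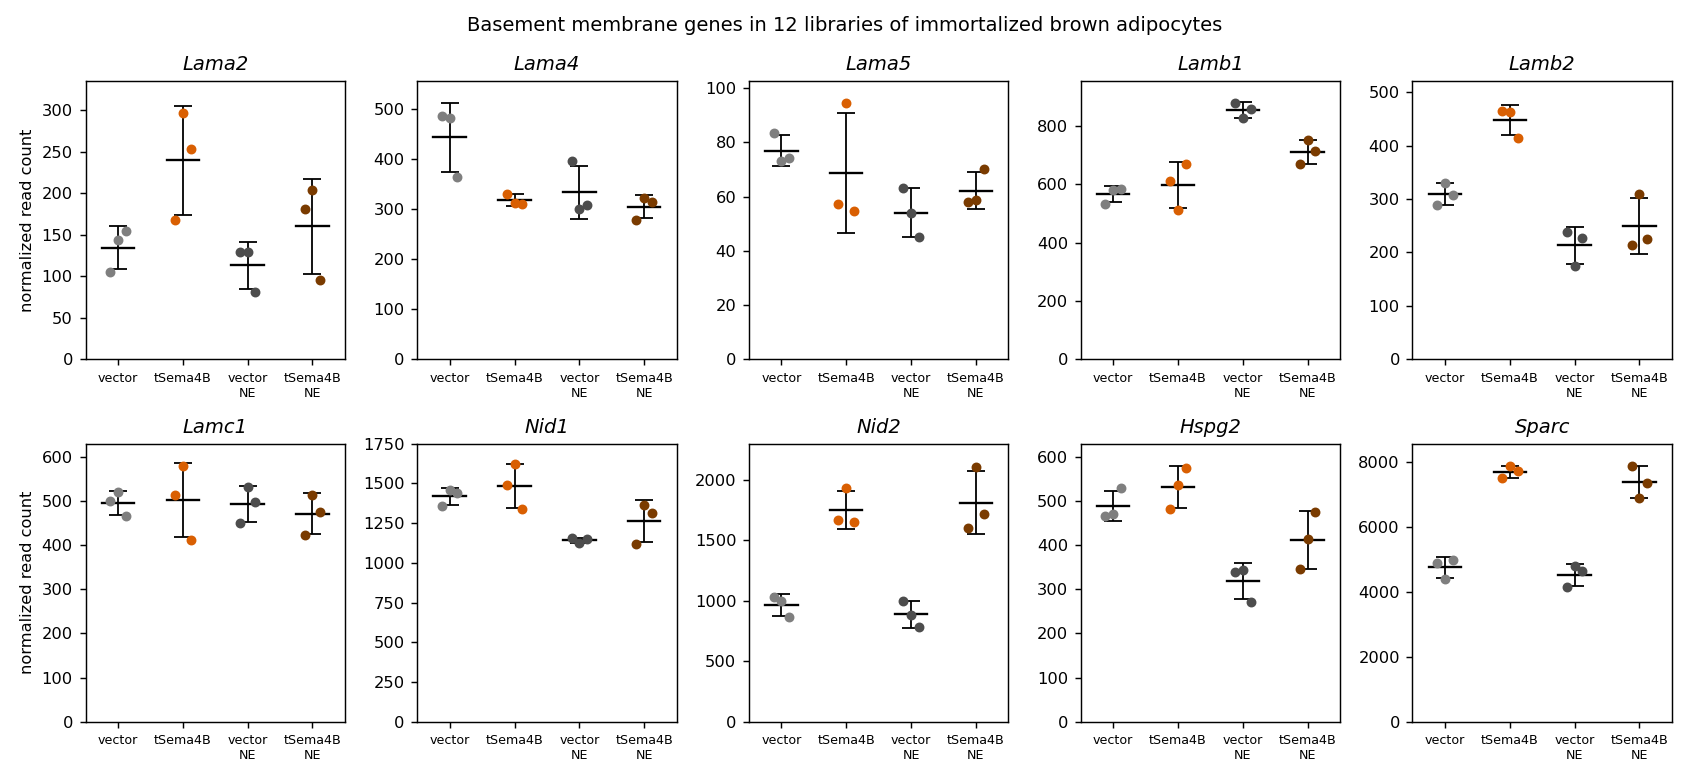
Normalized read counts of the 10 basement membrane genes in the 12 libraries, by group (vector, tSema4B, vector NE and tSema4B NE). Each point is 1 library, and the line and bar give the mean ± SD (n = 3). Nid2 and Sparc were higher in every tSema4B library than in every vector library, and Lamb1 was highest in vector NE.

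In unstimulated cells, tSema4B adipocytes had more Nid2, Sparc, Lama2 and Lamb2 mRNA and less Lama4 mRNA than vector adipocytes. The changes were smaller than 2-fold for all 5, and the remaining 5 genes did not pass the test. Changes are given as log2 changes, the log2 fold changes of the limma fit. A gene was taken to have risen or fallen when its limma p, adjusted over all 11998 genes tested, was 0.05 or less. By this rule 4 of 10 genes were higher, against 5.64% of all genes tested, and 1 of 10 was lower, against 7.39%. The groups did not overlap for 5 of the 10 genes, against 29.4% of all genes. The median log2 change of the 10 genes was 0.10, and that of all genes was -0.0025.

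After NE, Nid2, Sparc and Hspg2 were higher in tSema4B NE than in vector NE. Nid2, at 2.04-fold, was the only gene of the 10 that also passed a log2 fold change of 1 in any of the 4 comparisons. Over all genes, both thresholds were passed by 1.11% higher and 2.71% lower in tSema4B without NE, by 2.03% and 3.73% with NE, by 1.66% and 0.975% with NE in vector, and by 1.31% and 0.758% with NE in tSema4B (0.00833% and 0% for the interaction). The 3 genes that were higher compare with 9.79% of all genes, and 0 of 10 were lower by limma, against 11.2%. Lamb1 was the 1 gene of the 10 that edgeR and DESeq2 called lower, against 1451 and 1469 of 11998 genes. It was also the 1 lower gene at an unadjusted limma p under 0.05, with no share of all genes given at that threshold. The groups did not overlap for 4 of the 10, against 37.7% of all genes, and the median log2 change was 0.21 (all genes, -0.01).

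NE itself raised Lamb1 and lowered Lamb2, Nid1 and Hspg2 in vector adipocytes. In tSema4B adipocytes only Lamb2 passed the test, again lower. For vector this was 1 of 10 genes higher, against 6.82% of all genes, and 3 of 10 lower, against 4.78%. For tSema4B it was 0 of 10 higher, against 3.68% of all genes, and 1 of 10 lower, against 2.58%. By edgeR and DESeq2 it was also 0 of 10 higher, against 418 and 471 of 11998 genes. At an unadjusted limma p under 0.05 1 of the 10, Lamb1, was higher, with no share of all genes given at that threshold. Groups did not overlap for 5 and 2 of the 10 genes (33.3% and 20.7% of all genes), and the medians were -0.29 and -0.09 (all genes, -0.02 and -0.0048). None of the 10 genes passed the test of the difference between the lines in their response to NE, by limma, edgeR or DESeq2. Over all genes, limma called 0.025% higher and 0% lower in that test. Of 11998 genes, edgeR called 3 higher and 1 lower, and DESeq2 29 higher and 58 lower. At an unadjusted limma p under 0.05 there was 1 of the 10 genes, Lamb1, with no share of all genes given at that threshold. The rise of Lamb1 was smaller in tSema4B (interaction -0.34, SE 0.144, adjusted p = 0.403). The comparisons share their libraries, so each gene's values are given side by side.

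**Figure D2:**
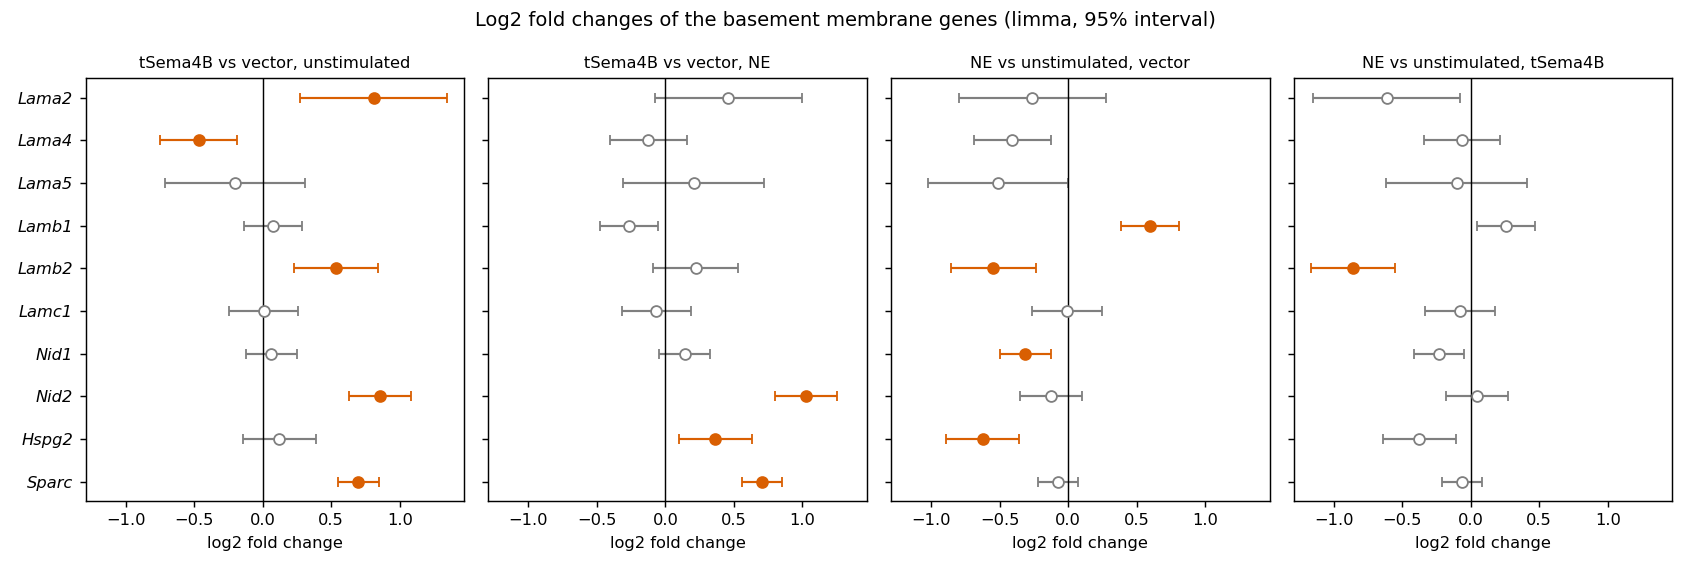
Log2 fold changes of the 10 genes in 4 comparisons, with 95% intervals from limma. Filled orange points passed an adjusted p of 0.05, and open grey points did not. Nid2 and Sparc lie to the right of 0 in both tSema4B comparisons, and Lamb1 and Lamb2 lie on opposite sides of 0 in both NE comparisons.

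Among the laminin α chains, Lama2 and Lama4 moved in opposite directions in unstimulated tSema4B adipocytes. Lama2 (chr10:26980036-27619758, minus strand) encodes the α2 chain of muscle and nerve basement membranes. Its normalized counts were 105.3, 142.9 and 154.7 in vector and 168.0, 297.0 and 253.3 in tSema4B with no overlap between the lines. The mean rose from 134.3 ± 25.8 to 239.4 ± 65.6 (log2 change 0.81, SE 0.259, adjusted p = 0.0414). The call was lost, at adjusted p from 0.0691 to 0.186, when vector replicate 1 or 2 or tSema4B replicate 2 or 3 was left out, with no filter on low values and with libraries scaled to the same nuclear total. In vector NE Lama2 was at 129.0, 129.2 and 80.5, and in tSema4B NE at 181.2, 203.6 and 95.1. These groups overlapped through the third tSema4B NE library (log2 change 0.46, SE 0.259, adjusted p = 0.228), and without it the value was 0.79 (adjusted p = 0.0269). Of the exon bases of Lama2, 631 of 16338 are shared with Gm48084 on the opposite strand, and the library kit does not mark strand.

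Lama4 (chr10:38965515-39110188, plus strand) encodes the α4 chain of laminin-411, which is found in adipocyte and vessel basement membranes. Vector libraries held 484.3, 480.9 and 362.7 normalized counts and tSema4B libraries 330.1, 312.5 and 309.4. All 3 tSema4B libraries were below the vector libraries, and the mean fell from 442.6 ± 69.3 to 317.3 ± 11.2 (log2 change -0.47, SE 0.135, adjusted p = 0.0237). The call was lost, at adjusted p from 0.0593 to 0.123, when vector replicate 1 or 2 or tSema4B replicate 2 or 3 was left out. After NE the values were 394.4, 298.7 and 307.1 in vector and 277.7, 321.0 and 313.2 in tSema4B, and the lines overlapped (log2 change -0.12, 95% interval -0.40 to 0.16). Against unstimulated vector, Lama4 in vector NE had a log2 change of -0.41 (SE 0.135, adjusted p = 0.0543) with overlapping libraries, and it passed under 10 of 18 alternatives, edgeR and DESeq2 included.

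Lama5 (chr2:180176373-180225859, minus strand) encodes the α5 chain, the most widespread α chain of adult basement membranes. It rested on 40 to 94 reads per library and passed the test in 0 of the 4 comparisons. Its means were 76.9 ± 5.80 in vector, 68.8 ± 22.2 in tSema4B, 54.1 ± 8.99 in vector NE and 62.2 ± 6.78 in tSema4B NE. All vector NE libraries were below the vector libraries (45.2 to 63.2 against 73.1 to 83.6), with a log2 change of -0.51 (SE 0.247, adjusted p = 0.211). The 95% interval of that difference ran from -1.02 to 0.00.

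Per kb of exon, Lama4 made up most of the α chain mRNA in every group, and Lama2 took a larger share in unstimulated tSema4B. The Lama2 share of the summed α chains was 16.1% ± 4.31 in vector and 30.9% ± 5.86 in tSema4B, with all tSema4B libraries (24.1% to 34.7%) above all vector libraries (12.0% to 20.6%). The Lama4 share was 70.7% ± 4.80 and 56.5% ± 7.35. After NE the Lama2 share was 17.5% ± 3.42 in vector and 23.9% ± 7.44 in tSema4B, with overlap. The Lama5 share lay between 12.1% and 13.6% in the 4 group means. The log2 ratio of Lama4 to Lama5 counts was lower in all tSema4B NE libraries than in all vector NE libraries (difference -0.33, SE 0.121, exact permutation p = 0.1, the smallest that 3 against 3 libraries allow). In the other 3 comparisons the groups overlapped, with differences from -0.26 (SE 0.290) to 0.11 (SE 0.150).

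In vector adipocytes NE moved the β chains in opposite directions. Lamb1 (chr12:31265234-31329644, plus strand) encodes the β1 chain of most laminins. Its counts were 534.3, 579.3 and 586.0 in vector and 880.2, 827.4 and 861.0 in vector NE. Every stimulated vector library was above every unstimulated one, and the rise was 1.51-fold (log2 change 0.60, SE 0.102, adjusted p = 4.84e-04). This call held under all 18 alternatives. In tSema4B the values were 611.4, 513.6 and 670.8 without and 669.1, 751.8 and 713.5 with NE, and the lowest stimulated library lay just under the highest unstimulated one (log2 change 0.26, SE 0.102, adjusted p = 0.151).

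With NE, all 3 tSema4B libraries thus had less Lamb1 than all 3 vector libraries, with means of 711.5 ± 41.4 and 856.2 ± 26.7. The log2 change was -0.27 (SE 0.102, adjusted p = 0.0662) by limma, and it passed under 4 of 18 alternatives, which were edgeR (adjusted p = 0.0487), DESeq2 (0.0342), a fit of these libraries alone (0.0462) and scaling to the same nuclear total (0.0350). Without stimulation the lines overlapped in Lamb1 (log2 change 0.07, 95% interval -0.14 to 0.28).

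Lamb2 (chr9:108479736-108490530, plus strand) encodes the β2 chain, known from synaptic, glomerular and vascular basement membranes. It was at 288.9, 329.6 and 308.2 in vector and at 464.8, 464.1 and 414.8 in tSema4B. The tSema4B libraries were all higher (log2 change 0.53, SE 0.149, adjusted p = 0.0183). NE brought it to 237.9, 173.7 and 227.8 in vector and to 213.4, 309.6 and 225.9 in tSema4B. The stimulated libraries were below the unstimulated ones in both lines. The log2 change with NE was -0.54 (SE 0.149, adjusted p = 0.0190) in vector and -0.86 (SE 0.149, adjusted p = 7.23e-04) in tSema4B, and the difference between these responses did not pass the test (interaction -0.31, 95% interval -0.75 to 0.12, adjusted p = 0.659). The fall in tSema4B held under all 18 alternatives. The rise without stimulation was lost, at adjusted p from 0.0586 to 0.0820, without vector replicate 1 or tSema4B replicate 1 or 2, and the fall in vector was lost, at 0.0543 to 0.127, without vector replicate 2 or 3 or vector NE replicate 2. After NE the lines overlapped in Lamb2 (log2 change 0.22, SE 0.149, adjusted p = 0.320).

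The ratio of Lamb2 to Lamb1 within a library does not depend on how libraries are scaled. On the log2 scale it was -0.88 ± 0.0574 in vector, -0.41 ± 0.274 in tSema4B, -2.02 ± 0.202 in vector NE and -1.53 ± 0.216 in tSema4B NE. With NE it was lower in each line, with differences of -1.14 (SE 0.121) in vector and -1.12 (SE 0.201) in tSema4B. The ratio was higher in tSema4B than in vector by 0.46 (SE 0.162) without and by 0.49 (SE 0.171) with NE. In all 4 comparisons the groups did not overlap, and each exact permutation test (two-sided) gave p = 0.1, the smallest that 3 against 3 libraries allow, or 0.15 adjusted over the 12 ratio tests. Per kb of exon, the Lamb2 share of the β chains was 47.0% in vector, 55.0% in tSema4B, 28.7% in vector NE and 36.1% in tSema4B NE.

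**Figure D3:**
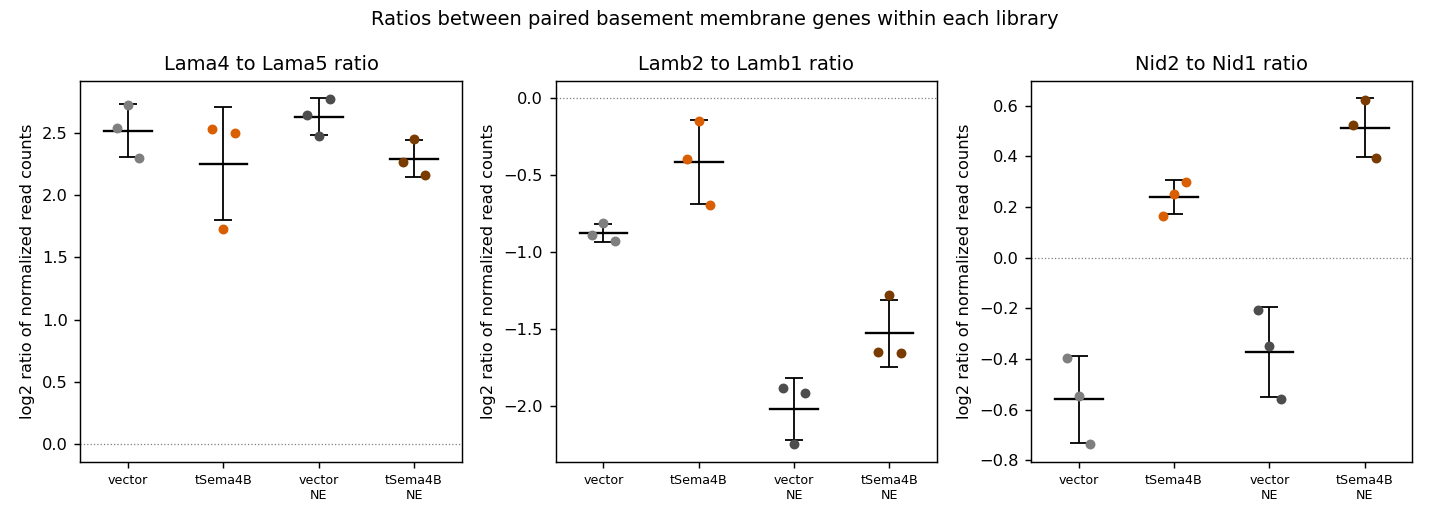
Log2 ratios of Lama4 to Lama5, Lamb2 to Lamb1 and Nid2 to Nid1 within each library, by group. Points are libraries, and the line and bar give the mean ± SD (n = 3). The Lamb2 to Lamb1 ratio is lower after NE in each line and the Nid2 to Nid1 ratio is above 0 only in tSema4B libraries.

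Lamc1 (chr1:153218922-153332786, minus strand), which encodes the γ1 chain that α and β chains share, stayed close to one level. Its means were 494.8 ± 27.3 in vector, 501.0 ± 83.8 in tSema4B, 492.5 ± 40.6 in vector NE and 470.8 ± 46.0 in tSema4B NE, and libraries ranged from 412.1 to 578.5. The groups overlapped in all 4 comparisons, and the log2 changes lay between -0.08 and 0.01. The 95% intervals of these differences reached from -0.33 to 0.26, so a change of that size in either direction is within the error. Per kb of exon, γ1 was at 56.9 to 60.6 in the group means, the summed β chains at 107.9 to 134.0 and the summed α chains at 39.3 to 51.7.

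Of the nidogens, Nid2 was higher in tSema4B in both conditions, and Nid1 did not pass the test in either. Nid2 (chr14:19751265-19811787, plus strand) encodes nidogen-2, which links laminin to type IV collagen. Its counts were 1033, 998.0 and 863.7 in vector, 1667, 1934 and 1648 in tSema4B, 1000.5, 880.8 and 780.4 in vector NE and 1604, 2103 and 1722 in tSema4B NE. The lowest tSema4B library was above the highest vector library in each condition. The log2 change was 0.86 (SE 0.109, adjusted p = 6.95e-06) without NE and 1.03 (SE 0.109, adjusted p = 5.96e-07) with NE, and both calls held under all 18 alternatives. The difference between these values did not pass the test (interaction 0.17, 95% interval -0.15 to 0.49, adjusted p = 0.774). NE itself left Nid2 within -0.35 to 0.10 log2 units in vector and -0.18 to 0.27 in tSema4B (95% intervals). Of the 5174 exon bases of Nid2, 437 are shared with Rtraf on the opposite strand, and reads from there cannot be told apart.

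Nid1 (chr13:13437551-13512269, plus strand) encodes nidogen-1, with the same linking role. Its counts were 1357, 1457 and 1440 in vector and 1155, 1123 and 1150 in vector NE. The stimulated libraries were all lower (log2 change -0.31, SE 0.0893, adjusted p = 0.0253). The call was lost, at adjusted p from 0.0593 to 0.0920, without vector replicate 2 or 3, without any of the 3 vector NE libraries and with no filter on low values. In tSema4B the means were 1484 ± 141 without and 1265 ± 131 with NE, and the libraries overlapped (log2 change -0.23, SE 0.0893, adjusted p = 0.133). Between the lines, the log2 change was 0.06 (95% interval -0.12 to 0.25) without and 0.14 (95% interval -0.04 to 0.33) with NE. Nid1 shares 143 of 6943 exon bases with Gm48682 on the opposite strand.

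The log2 ratio of Nid2 to Nid1 counts was negative in every vector library and positive in every tSema4B library. It was -0.56 ± 0.172 in vector, 0.24 ± 0.0672 in tSema4B, -0.37 ± 0.177 in vector NE and 0.51 ± 0.116 in tSema4B NE. The difference between the lines was 0.80 (SE 0.107) without and 0.88 (SE 0.122) with NE, with exact permutation p = 0.1 in each case (0.15 adjusted). With NE the ratio was higher by 0.27 (SE 0.0774, exact permutation p = 0.1) in tSema4B, without overlap, and by 0.19 (SE 0.142, exact permutation p = 0.3) in vector, with overlap. Per kb of exon, Nid2 made up 47.7% of nidogen mRNA in vector and 61.3% in tSema4B, and 50.9% and 65.7% after NE. The summed nidogen level per kb was 390.7 in vector, 552.0 in tSema4B, 336.0 in vector NE and 531.9 in tSema4B NE.

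The genes with the pattern most like that of Nid2 were looked for among 5804 genes with a mean of at least 100 normalized counts. Likeness was measured as the root mean square difference of the centred log2 values over the 12 libraries, a description with no test. The 3 nearest were Col3a1 (0.143), which encodes type III collagen, Col5a2 (0.146), a chain of type V collagen, and Dysf (0.162), which encodes the membrane repair protein dysferlin. Col3a1 had means of 6905 in vector, 14462 in tSema4B, 6490 in vector NE and 14650 in tSema4B NE. It is also one of the fibroblast markers summed above, and the part of those markers in the levels of Nid2 was not tested.

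Hspg2 (chr4:137468769-137570630, plus strand) encodes perlecan, the large heparan sulphate proteoglycan of basement membranes. Its counts were 465.9, 470.8 and 528.2 in vector and 338.6, 344.4 and 271.7 in vector NE. Every stimulated vector library was below every unstimulated one (log2 change -0.62, SE 0.129, adjusted p = 0.00270), a call that held under all 18 alternatives. In tSema4B it was at 481.5, 536.8 and 575.0 without and at 345.3, 413.8 and 474.4 with NE. These libraries did not overlap either, but the log2 change of -0.38 (SE 0.129, adjusted p = 0.0882) did not pass, except without tSema4B NE replicate 3 (-0.49, adjusted p = 0.0412).

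Between the lines Hspg2 did not pass the test without stimulation (log2 change 0.12, 95% interval -0.15 to 0.39). After NE all tSema4B libraries were above all vector libraries, narrowly in 1 case (345.3 against 344.4), with a log2 change of 0.36 (SE 0.129, adjusted p = 0.0471). That call was kept under 8 of 18 alternatives. It was lost without any of the 3 vector NE libraries or without tSema4B NE replicate 2 or 3, with adjusted p from 0.0510 to 0.242, and under 5 other settings, with adjusted p from 0.0528 to 0.108.

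Sparc (chr11:55394500-55423183, minus strand) encodes SPARC, also known as osteonectin. Its counts were 4892, 4395 and 4994 in vector and 7512, 7883 and 7737 in tSema4B. After NE they were 4142, 4796 and 4649 in vector and 7886, 6909 and 7357 in tSema4B. In each condition the lowest tSema4B value exceeded the highest vector value, and the lines differed by 1.62-fold without (log2 change 0.70, SE 0.0710, adjusted p = 2.75e-07) and 1.63-fold with NE (0.71, SE 0.0710, adjusted p = 2.75e-07). Both calls held under all 18 alternatives. The interaction was 0.01 (95% interval -0.20 to 0.22), and the log2 change with NE was -0.07 in vector (adjusted p = 0.599) and -0.06 in tSema4B (adjusted p = 0.683), with overlapping libraries.

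Between the unstimulated lines, Nid2, Sparc, Lama2 and Lamb2 were higher, and Lama4 lower, in tSema4B, where the summed brown adipocyte markers were lower and the summed preadipocyte and fibroblast markers higher. The marker sums stood apart in the same directions after NE, where Nid2, Sparc and Hspg2 were higher in tSema4B and Lama2, Lamb2 and Lama4 did not pass the test. With NE, Lamb2 fell in both lines and Nid1 and Hspg2 fell in vector. The summed pericyte and smooth muscle markers were then lower in every tSema4B library and overlapped in vector. The summed preadipocyte and fibroblast markers were lower in each line, narrowly in tSema4B, and Col1a1 and Col3a1 were most of that sum. Of these markers, Pdgfrb, Dlk1, Cd34 and Col1a1 fell in both lines. Ly6a rose in both (adjusted p = 0.00316 and 6.57e-04), and the other tested members did not pass. The summed brown adipocyte markers were higher in each line, and Fabp4 was most of that sum. In vector Fabp4 and Ucp1 rose, and Plin1 (log2 change -0.97, adjusted p = 0.0300) and Pparg (-0.71, adjusted p = 0.0146) fell. In tSema4B Fabp4, Ucp1, Lpl and Cidec rose. The other tested ones did not pass. The part of these markers in the results was not tested. In bulk libraries such as these, fewer cells of a type and less RNA per cell cannot be told apart.

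Other basement membrane genes were taken from a list of 25, of which 13 were tested. In tSema4B against vector without stimulation, 5 of the 13 were higher (5.64% of all genes tested) and 1 was lower (7.39%), and their median log2 change was 0.18. With NE 4 were higher (9.79% of all genes) and 2 lower (11.2%), and the median was 0.26. Col18a1, which encodes the collagen that gives endostatin, was higher in both conditions, at 300.8 to 336.3 in vector and 508.9 to 744.1 in tSema4B without NE (log2 change 0.97, SE 0.137, adjusted p = 2.53e-05).

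Of the type IV collagen chains, which form the partner network of the laminins, 4 were tested, and 3 of them rose in unstimulated tSema4B (5.64% of all genes) and 1, Col4a5, was higher after NE (9.79%). Col4a1, one of the ubiquitous chains, had means of 2011 ± 139 in vector and 2287 ± 231 in tSema4B (log2 change 0.18, SE 0.0981, adjusted p = 0.248), and 2016 ± 242 and 1881 ± 210 after NE (-0.10, adjusted p = 0.520). Its partner Col4a2 rose without stimulation (log2 change 0.33, SE 0.101, adjusted p = 0.0336; kept under 11 of 18 alternatives) and was at 0.07 (adjusted p = 0.663) after NE. Col4a5 rose from 243.5 ± 26.7 to 382.6 ± 8.92 without NE (log2 change 0.65, SE 0.129, adjusted p = 0.00115) and was also higher after NE (0.83, adjusted p = 7.24e-05). Col4a6, which lies head to head with Col4a5 on chromosome X, rested on 19 to 64 reads and rose without NE (log2 change 1.27, SE 0.339, adjusted p = 0.0142). With NE its log2 change was 0.64 (adjusted p = 0.197).

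The gene of this list that was lower without stimulation was Lamb3, which encodes a laminin β chain of epithelial basement membranes. It had 14 to 27 reads per library in vector and 0 to 2 in tSema4B (adjusted p = 0.00600), and 8 to 14 against 0 to 1 after NE (adjusted p = 0.0399; kept under 7 of 15 alternatives, over which the adjusted p ranged between 0.0216 and 0.156), and no fold is given at this depth. Npnt, encoding nephronectin, was lower in tSema4B NE than in vector NE (9.65 to 29.4 against 36.7 to 46.2, log2 change -1.14, SE 0.398, adjusted p = 0.0455), a call kept under 8 of 17 alternatives. Lama3, encoding a further laminin α chain, had at most 3 reads in any library.

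With NE, 3 of the 13 genes fell in vector (Smoc2, Col18a1 and Pxdn, against 4.78% of all genes). In tSema4B 3 fell (Smoc2, Col18a1 and Col15a1, against 2.58%), and the other 10 did not pass in each case. Pxdn fell by 0.49 in vector (SE 0.111, adjusted p = 0.00552) and was higher in tSema4B NE than in vector NE (log2 change 0.39, adjusted p = 0.0149). Smoc2, which encodes a SPARC-related modular calcium-binding protein, fell in both lines, from 189.9 ± 33.7 to 47.2 ± 10.3 in vector (log2 change -1.99, SE 0.280, adjusted p = 5.06e-05) and from 140.7 ± 30.4 to 59.9 ± 25.3 in tSema4B (adjusted p = 0.00565). Col18a1 also fell in both, by 0.49 (adjusted p = 0.0216) and 0.50 (adjusted p = 0.0303), each call being kept under 13 of 18 alternatives. Col15a1, a basement membrane zone collagen, fell by 1.08 (SE 0.194, adjusted p = 0.00106) in tSema4B and was at -0.37 (adjusted p = 0.259) in vector. The difference between these responses did not pass the test (interaction -0.71, adjusted p = 0.360).

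**Figure D4:**
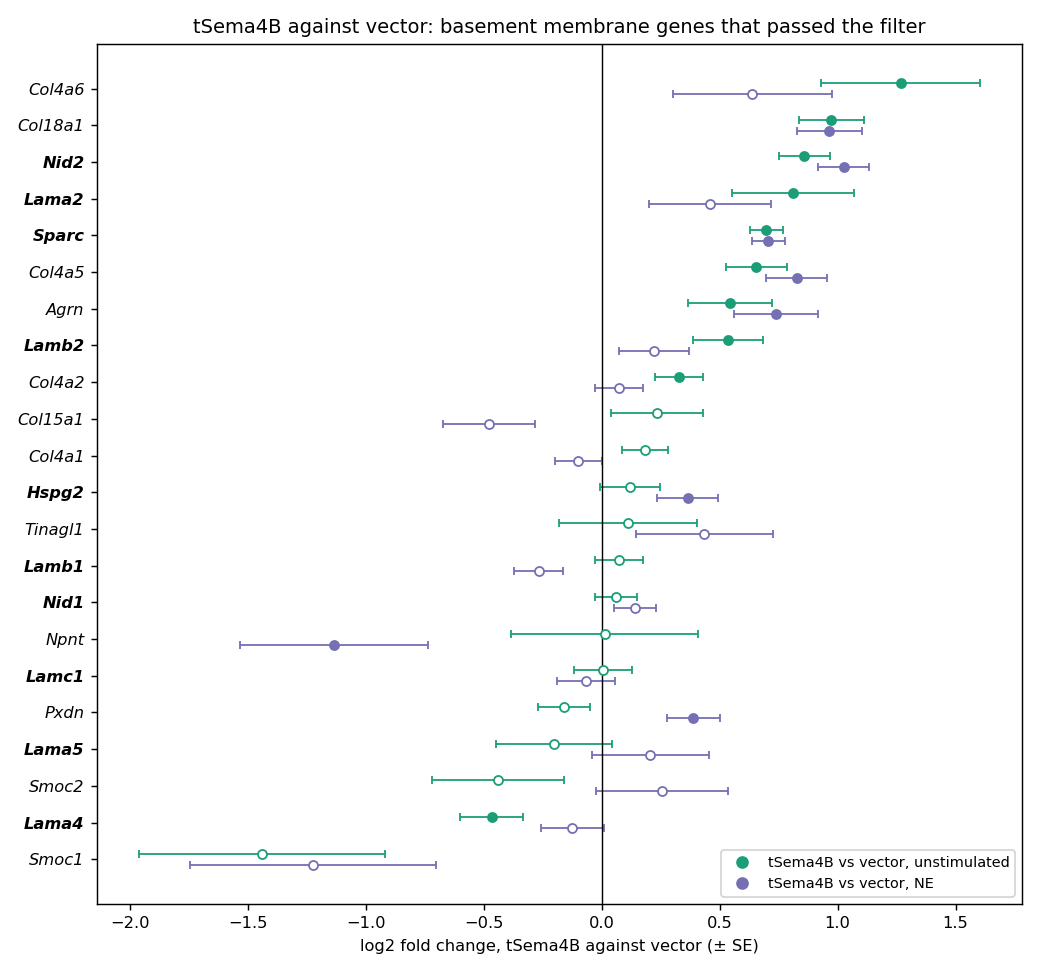
Log2 fold changes (± SE) of tSema4B against vector for the 10 genes (bold) and 12 of the 13 tested genes of the wider basement membrane list, without stimulation (green) and with NE (purple). Filled points passed an adjusted p of 0.05. Lamb3 is not drawn, since it had at most 2 reads in every tSema4B library. Nid2, Sparc, Col18a1, Col4a5 and Agrn are higher in both conditions, the call of Agrn without NE being kept under 9 of 18 alternatives.

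Receptors for laminins and perlecan were described in the same way, with 13 of 17 tested. In tSema4B 4 were higher without stimulation (Itgb1, Sdc1, Sdc2 and Sdc4), against 5.64% of all genes, and 4 with NE (Itgb1, Sdc1, Sdc2 and Sgce), against 9.79%, and the other 9 did not pass in each case. The call of Sdc4 was kept under 8 of 18 alternatives and that of Sgce under 11 of 18. Itgb1, the β1 chain that laminin-binding integrins share, had a log2 change of 0.48 (SE 0.0801, adjusted p = 2.07e-04) without and 0.42 (SE 0.0801, adjusted p = 5.85e-04) with NE. The tested integrin α chains did not pass in either condition. Their fitted log2 changes were negative for Itga3, Itga6 and Itga7 and positive for Itga1 in both conditions. With NE, 2 of the 13 rose in vector (Sdc1 and Sdc4, against 6.82% of all genes) and 3 fell (Dag1, Sdc2 and Utrn, against 4.78%), and in tSema4B 2 rose (Sdc1 and Sdc4, against 3.68%) and 1 fell (Sdc2, against 2.58%). NE raised Sdc1, encoding the heparan sulphate proteoglycan syndecan-1, from 376.3 ± 22.4 to 924.0 ± 109.8 in vector (log2 change 1.29, SE 0.104, adjusted p = 3.79e-08) and by 1.38 in tSema4B (adjusted p = 1.50e-08). Sdc4, encoding syndecan-4, rose by 0.80 in vector (adjusted p = 6.73e-06) and 0.53 in tSema4B (adjusted p = 0.00127), and Sdc2, encoding syndecan-2, fell by 0.51 (adjusted p = 0.00206) and 0.50 (adjusted p = 0.00343). Utrn, encoding the dystroglycan-binding protein utrophin, fell by 0.66 in vector (SE 0.182, adjusted p = 0.0195). Dag1, encoding dystroglycan, fell with NE in vector (log2 change -0.50, SE 0.107, adjusted p = 0.00324) and was at -0.11 (adjusted p = 0.640) in tSema4B, a difference that did not pass the test (interaction 0.40, adjusted p = 0.346).

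Of 5 relatives of Sparc, 3 were tested. In tSema4B 2 were higher without NE (5.64% of all genes) and 3 with NE (9.79%). With NE 1 fell in vector (4.78% of all genes) and 1 in tSema4B (2.58%). Sparcl1, encoding hevin, and Fstl1, encoding follistatin-like 1, were higher in tSema4B in both conditions. The log2 changes of Fstl1 were 0.54 (adjusted p = 4.14e-05) without and 0.67 (adjusted p = 2.25e-06) with NE. The log2 changes of Sparcl1 were 0.79 (SE 0.145, adjusted p = 5.36e-04) without and 0.98 (SE 0.145, adjusted p = 3.83e-05) with NE. Sparcl1 also fell with NE, from 196.3 ± 26.4 to 102.1 ± 5.66 in vector (log2 change -0.93, SE 0.145, adjusted p = 1.75e-04) and by 0.74 in tSema4B (adjusted p = 0.00257). Spock2, a testican, was higher in tSema4B NE than in vector NE (37.5 to 47.3 against 11.3 to 21.6, log2 change 1.33, SE 0.385, adjusted p = 0.0162).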

How the data were processed

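The 12 RNAseq libraries of immortalized murine adipocytes were grouped by their titles. The authors screened reads with FastQ Screen, aligned them with STAR 2.7.9a to mm10 (GRCm38.p4), used htseq-count for counts per gene and normalized these with DESeq2 size factors. The signal the authors deposited is thus a normalized read count. Every non-zero value was a whole multiple of the value of 1 read (0.593 to 1.55 normalized counts, tolerance 0.01; 100% of values), so whole reads were recovered. The annotation, the strand setting and the handling of multi-mapping reads are not given in the sources used here.

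A gene needed 10 or more normalized counts in 3 or more libraries to be tested (11998 genes), and log2(normalized count + 1) was fitted with limma 3.58.1 (R 4.3.3) in one model of 4 groups with a trend on abundance. Fold changes are on that scale. The limma p-values are two-sided and Benjamini-Hochberg adjusted over all genes tested. Ratios were compared by exact permutation (12 tests). An exact test of 3 against 3 libraries cannot give p under 0.1. Errors cover the spread between libraries only.

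The members and the lists were chosen with earlier results of these data known. The 10 members were named in full. From the wider lists, genes that passed an adjusted p of 0.05 and a log2 fold change of 1 in a comparison were named, with every tested Col4 gene and Col18a1. Itgb1, the Itga genes, Dag1, Fstl1, Sparcl1, Lama3, Pxdn and the genes behind small counts were named after their values were seen. The alternatives were other pseudocounts (0.5, 10), other filters (none, 50 counts), 3 scalings, edgeR 4.0.16 and DESeq2 1.42.0 on whole reads, the 2 groups alone, thinned reads, a replicate block, the fold threshold, and each library left out in turn. In addition, 1 gene that the wider lists first held is not reported here and enters none of their counts. Positions, exon lengths and overlaps came from GENCODE (GRCm38).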

Additional observations from a re-analysis of the deposited data

How the results depend on the processing

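The values of the 10 genes were followed over 18 alternatives for each comparison of 2 groups (23 for the interaction), and the fold threshold. Of these, 940 kept their side of the threshold, 44 no longer passed, 16 newly passed, and 0 reversed while called. Some values that were not called changed sign, such as Lamb1 in tSema4B against vector without NE (log2 change from -0.016 to 0.178). Requiring a log2 fold change of 1 as well left 0 genes higher and 0 lower in tSema4B without NE, 1 higher (Nid2) after NE, and 0 higher and 0 lower with NE in vector and 0 lower in tSema4B. The count of genes lower in tSema4B NE than in vector NE, 0 in limma, was 1 (Lamb1) with edgeR, with DESeq2, with only the 2 groups compared and with libraries scaled to the same nuclear total. Over all genes, these settings called 1451 of 11998, 1469 of 11998, 1362 of 11477 and 1570 of 12035 lower. With each library left out in turn, tSema4B against vector gave 2 to 4 genes higher and 0 to 1 lower without NE and 2 to 3 higher after NE, and NE gave 1 to 3 genes lower in vector and 1 to 2 lower in tSema4B. The lowest count of higher genes without NE, 2, came without vector replicate 1 or tSema4B replicate 2, and the lowest count of lower genes in vector, 1, without vector replicate 2 or vector NE replicate 2. Why these counts moved was not tested, beyond there being fewer libraries. Scaling shifted all genes: without NE, 677 higher and 887 lower genes became 474 and 1232 at equal nuclear totals, and after NE 1175 and 1342 became 1650 and 1026 at equal totals.

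Replicate numbers did not pair the libraries, since correlations of same-numbered libraries lay between -0.047 and 0.028 over 18 pairs. With the replicate number as a block, 4 genes were higher and 1 lower in tSema4B without NE and 2 were higher after NE, Hspg2 being lost (adjusted p = 0.0528). No other call of the 10 genes changed with the block, of the wider lists Agrn, Sdc4 and Npnt lost theirs, and the ratios kept their values by construction. Of 39 calls of 20 named genes from the wider lists, 28 were kept under every alternative run and 11 were lost under at least 1, namely Col4a2, Col4a6, Agrn and Sdc4 in tSema4B without NE, Lamb3, Npnt, Sgce and Spock2 in tSema4B after NE, Col18a1 with NE in each line and Utrn with NE in vector. Pxdn and the Itga genes were not among these 20 genes and were not followed over the alternatives, the replicate block included. Of the 10 genes Lama5 had the fewest reads in every library, 40 to 94, so its relative counting error was the largest.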
